A study of Mus musculus with 21 samples.

Results

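The genes described here encode fibroblast growth factors (FGFs), their receptors and carrier proteins, and the proteins that dampen the signal inside the cell. They were chosen by gene symbol alone: all entries named Fgf, Fgfr1 to Fgfr4, Fgfrl1, Fgfbp, Spry1 to Spry4, Spred1 to Spred3 or Dusp followed by a number. The rule found 60 genes among the 22050 entries of the expression table. Of these, 22 were ligands, 5 receptors, 2 carriers, 7 Sprouty or Spred genes, 10 MAPK phosphatases and 14 atypical phosphatases.

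Expression was compared between keratinocytes of K5-rtTA/tet-GFP/tet-p16 mice, in which doxycycline switches on human p16 together with GFP under the keratin 5 promoter, and those of K5-rtTA/tet-GFP control mice, in which it switches on GFP alone. Both groups were of mixed FVB, C57Bl and 129sv background and received doxycycline for 6 months, starting at 3 weeks of age. GFP+ cells of the dorsal skin were sorted after CD140a-, CD45- and CD31-stained cells had been gated out, and each of the 4 control and 4 p16 samples pooled about 80000 cells of 3 mice. Replicates are separate pools, which the study's methods say came from 3 independent experiments, and p-values measure the spread between pools. Experiment was not a term of the main fit. The keratin 5 promoter is active in the basal layer and in the outer root sheath and bulge of the hair follicle, so the sorted population mixes these compartments.

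FGFs bind receptor tyrosine kinases together with heparan sulfate chains, and the activated receptors recruit adaptors that switch on RAS, RAF, MEK and ERK. ERK induces its own brakes: Sprouty and Spred proteins act on RAS and RAF, and dual-specificity phosphatases (DUSPs) remove the phosphates that activate MAP kinases. In skin, FGF receptor 2 serves keratinocyte upkeep, and FGF18 is known as a factor of the hair follicle that favours its resting phase.

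The promoters of the 3 genes of the set that passed the test are shown because the ETS factors Etv4 and Etv5, reported further on, also passed it. Each is the 250 bases before the RefSeq start, written 5′ to 3′ on the gene's strand. Capitals mark the letters GGAAGT on either strand (ACTTCC when read on the gene's strand), a form of the ETS core motif.
Spry1 (GRCm38.p6, chr3:37639697-37639946, plus strand): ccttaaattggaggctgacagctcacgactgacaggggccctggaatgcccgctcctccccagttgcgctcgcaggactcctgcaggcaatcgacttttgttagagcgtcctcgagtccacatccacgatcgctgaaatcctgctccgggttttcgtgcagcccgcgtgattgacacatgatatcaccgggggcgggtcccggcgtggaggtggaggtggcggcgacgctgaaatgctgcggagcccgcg
Spred2 (GRCm38.p6, chr11:19924192-19924441, plus strand): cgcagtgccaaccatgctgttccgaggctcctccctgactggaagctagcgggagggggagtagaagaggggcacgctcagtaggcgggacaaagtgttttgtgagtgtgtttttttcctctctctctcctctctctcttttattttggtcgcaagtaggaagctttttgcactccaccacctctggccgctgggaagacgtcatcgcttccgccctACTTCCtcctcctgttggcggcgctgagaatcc
Fgf18 (GRCm38.p6, chr11:33147401-33147650, minus strand): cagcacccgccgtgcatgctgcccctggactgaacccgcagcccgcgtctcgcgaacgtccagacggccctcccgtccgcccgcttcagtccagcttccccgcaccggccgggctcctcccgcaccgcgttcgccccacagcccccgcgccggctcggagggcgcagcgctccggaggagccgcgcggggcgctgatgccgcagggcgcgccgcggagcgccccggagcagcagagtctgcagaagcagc
The Spred2 window held 1 match, on the opposite strand, whose first base lies 33 bases before the RefSeq start. In GENCODE M21 the gene starts at 19924375, inside this window, and by that annotation the match lies within the gene. The windows of Spry1 and Fgf18 held none. Among the 36 tested genes of the set, 29 were matched by symbol to the promoter windows used here, and 5 of these held the letters in at least 1 window (17.2%), against 19.7% of all 32851 promoter windows. Besides Spred2 they were Dusp5, Fgf13, Fgfbp3 and Fgfrl1. A TCF/LEF core, CTTTGA on either strand, was in none of the 29 genes' windows and in 13.8% of all windows. GC content was 62.4% in the Spry1 window, 56.0% in the Spred2 window and 77.2% in the Fgf18 window.

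Libraries held between 1760953 and 3414362 reads on genes, so that 3 reads, taken as the limit of detection (counting error only), corresponded to a normalized read count of 2.23 to 4.58. The human CDKN2A transgene was at 0.7, 1.3, 2.5 and 1.5 in control samples 1 to 4 and at 1.6, 10.1, 16 and 7.4 in p16 samples 1 to 4. Its value in the library labelled p16 replicate 1 thus lay inside the control range, with 2 reads, and the results below are also given without that library where it matters. Over all genes tested, that library's median correlation was 0.9779 with the other p16 samples and 0.9616 with the control samples. The transgene did not pass (log2 difference 1.73, SE 0.53, limma, adjusted p = 0.0952, exact two-sided permutation p = 0.0571), at 18 reads or fewer in each sample. GFP was between 4152.0 and 5912.6 in control samples and between 3161.8 and 3978.8 in p16 samples, and passed as lower (log2 difference -0.58, SE 0.12, limma, adjusted p = 0.0167). The labels describe the libraries of replicate 3, in both groups, by Illumina's RNA sequencing protocol and the other libraries by CEL-Seq, so the results were also computed without both replicate 3 samples, and 1 sample per group with the former description allowed no test of its own. The p16 replicate 4 library differed most from its group (chi-square per degree of freedom of 6.75 to 8.96 against the other p16 libraries, which were at 3.05 to 3.31 among themselves).

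Of the 60 genes, 24 stayed at 3 reads or fewer in every sample and 36 passed the filter on low values (a mean normalized count of at least 1). Within the limma fit across all 12782 genes tested, 3 of the 36 passed an adjusted p of 0.05, which is 8.33% beside 3.86% of all genes tested. Spry1 and Spred2 were higher in p16 cells (5.56% beside 1.24% of all genes higher), and Fgf18 was lower (2.78% beside 2.61% of all genes lower). Values of the 4 control and the 4 p16 samples did not overlap for the same 3 genes, 8.33% of the 36 beside 9.83% of all genes. At an unadjusted p under 0.05 there were 9 genes, 4 higher and 5 lower, which is 25% beside 15.9% of all genes. The median log2 difference over the 36 genes was 0.06, where that over all genes was 0.00, and 15 of the 36 differences were below 0 (41.7%, beside 50.4% of all genes).

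**Figure D1:**
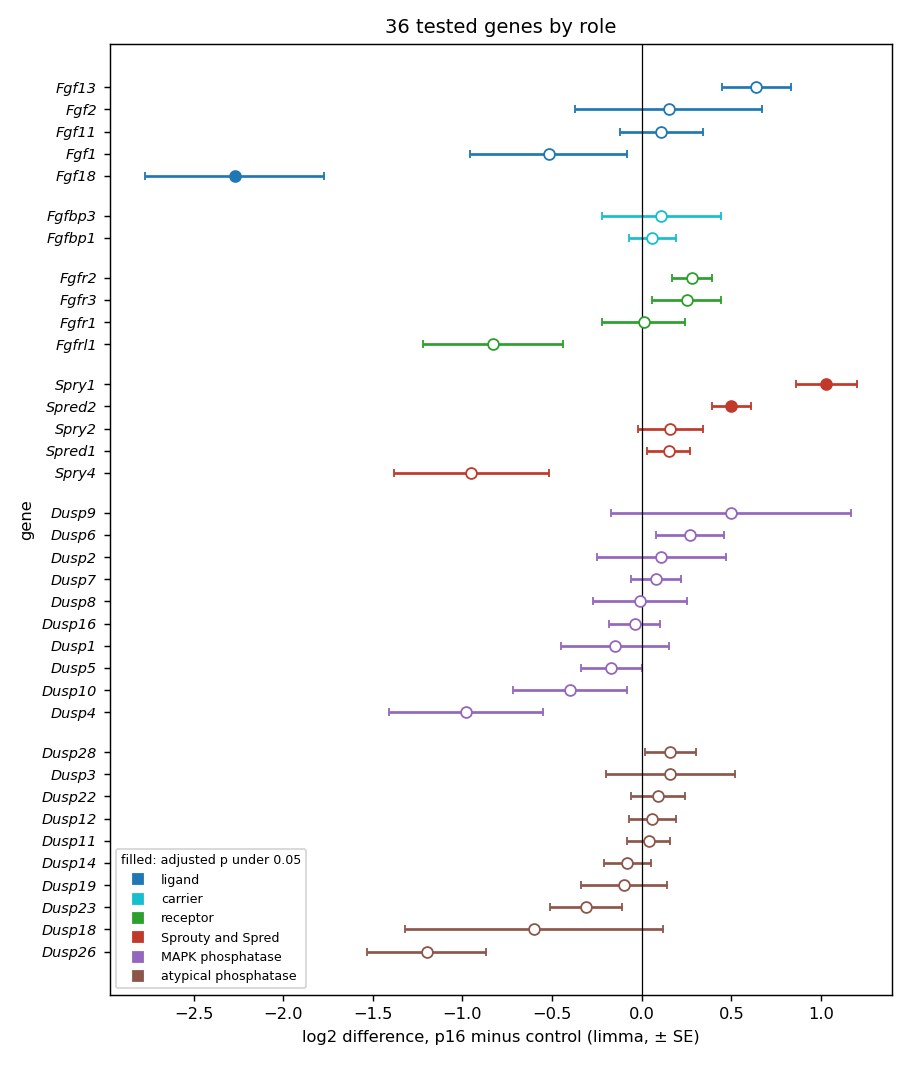
Log2 difference between p16 and control samples (limma, on log2 of the normalized read count plus 1, x axis) for the 36 tested genes, grouped by role, with bars for the SE; filled points passed an adjusted p of 0.05. Spry1 at 1.03 and Fgf18 at -2.27 lie at the ends, and most other genes lie near 0.

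Most FGF ligands were not detected in these keratinocytes. Of 22 ligand genes, 11 had no read in any sample (Fgf3, Fgf4, Fgf6, Fgf8, Fgf10, Fgf12, Fgf14, Fgf15, Fgf17, Fgf22 and Fgf23) and 6 had at most 3 reads in any sample (Fgf5, Fgf7, Fgf9, Fgf16, Fgf20 and Fgf21). Fgf7 and Fgf10, which are known as products of dermal cells that act on epithelial FGF receptor 2, are thus among the genes at the limit. The 5 ligand genes above it were Fgf18, Fgf1, Fgf2, Fgf11 and Fgf13.

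Fgf18 (ENSMUSG00000057967, chr11:33117430-33147400, GRCm38, minus strand) fell in p16 cells. Its normalized read counts were 8.9, 9.0, 15.0 and 3.1 in control samples 1 to 4 and 0.8, 0, 0.9 and 2.5 in p16 samples 1 to 4. All p16 values were below all control values, but control replicate 4, with 2 reads, was close to the highest p16 value, which had 3 reads. In reads the groups thus overlapped, and their order there rests on scaling of the shallowest library. Since every p16 sample held 3 reads or fewer, the change is a bound: the mean was at least 3.65-fold lower, set against 3 reads in each p16 library. The fitted log2 difference was -2.27 (SE 0.50, limma, adjusted p = 0.0206). With a pseudocount of 0.1 it was -3.51 and no longer passed (limma, adjusted p = 0.0612). The call was lost without control replicate 1, 2 or 3 or the library labelled p16 replicate 1 (adjusted p of 0.0727, 0.0528, 0.0777 and 0.0578 in limma), and without replicate 3 of both groups (log2 difference -2.0, adjusted p = 0.140). Fgf18 was too low to enter the edgeR test.

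Most markers of the hair follicle were also lower in p16 samples. Of 8 markers of hair-follicle stem cells, 6 passed as lower in p16 samples in limma, where 2.61% of all genes did. They were Cd34, Lhx2, Sox9, Krt15, Tcf7l1 and Nfatc1. Lgr5 was lower on average and did not pass (log2 difference -0.69, SE 0.28, limma, adjusted p = 0.241). The summed level of the 8 was between 11800 and 16000 in control samples and between 9050 and 9150 in p16 samples. Postn, of the same list, was higher on average, at 380.6, 320.8, 282.3 and 165.0 in control samples and at 542.9, 578.5, 680.1 and 202.3 in p16 samples (log2 difference 0.73, SE 0.32, limma, adjusted p = 0.272). Lhx2, a transcription factor of the bulge, was at 658.7, 391.4, 487.8 and 540.8 in control samples and at 103.1, 150.7, 159.6 and 66.6 in p16 samples, a log2 difference of -2.16 (SE 0.23, limma, adjusted p = 0.000111). All 6 markers of the outer follicle layers were below 0 in log2 difference (3 passed, Krt75, Krt6a and Gata6, median -0.80). Their sums were 11800 to 18500 in control and 10400 to 13600 in p16 samples. Sebaceous gland and melanocyte markers were lower as well. All 5 tested sebaceous gland markers were below 0 in log2 difference (3 passed, Mgst1, Awat2 and Elovl3, median -1.80), with sums of 610 to 717 in control and 249 to 358 in p16 samples. All 5 tested melanocyte markers were below 0 too (2 passed, Dct and Tyrp1, median -1.82), with sums of 68.4 to 438 and 17.2 to 85.9. The part of these markers in the Fgf18 difference was not tested, and in pooled cells fewer cells of a kind and less RNA per cell cannot be told apart.

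Among the other ligand genes, Fgf13, which encodes an intracellular FGF homologous factor that is not secreted and binds sodium channels and microtubules, was at 33.4, 47.5, 35.9 and 35.1 in control samples and at 46.4, 54.7, 67.4 and 71.5 in p16 samples. All p16 values but that of replicate 1 were above the control range. The log2 difference of 0.64 (SE 0.19) did not pass the adjusted threshold (limma, adjusted p = 0.0789), and none of the other settings brought it below 0.0517. Fgf1, an FGF that binds all FGF receptors, was at 54.9, 29.5, 28.4 and 29.0 in control samples and at 42.4, 44.5, 20.4 and 7.4 in p16 samples (log2 difference -0.52, SE 0.44, limma, adjusted p = 0.638). One control sample was high and p16 replicate 4 was low, and without that p16 sample the difference was -0.01. Fgf11, another intracellular member, was between 15.6 and 23.4 in control samples and between 15.1 and 21.9 in p16 samples. Fgf2 did not exceed 3.1 in any sample, or 4 reads.

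**Figure D2:**
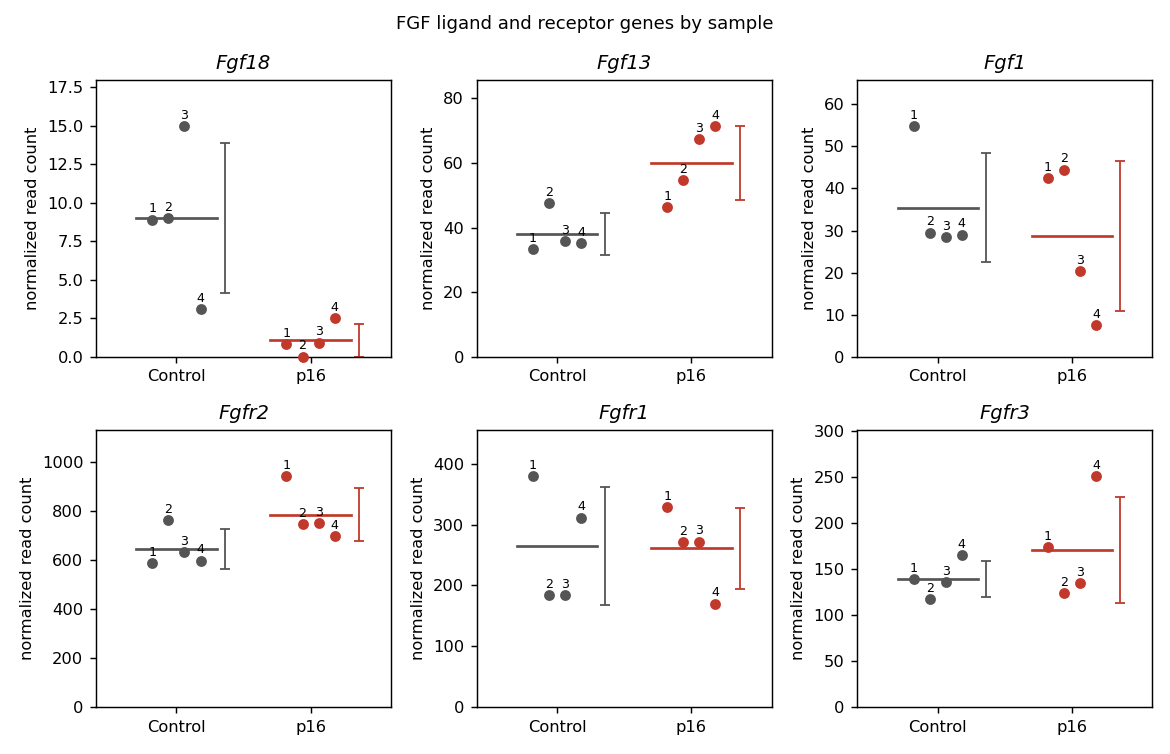
Normalized read count (y axis, linear, from 0) of 3 FGF ligand and 3 receptor genes in the 4 control and 4 p16 samples; numbers are replicates, horizontal lines group means and bars SD. Fgf18 is at 2.5 or below in all p16 samples, while the ranges of the other 5 genes overlap between the groups.

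Of the 5 receptor genes, 4 were detected in both groups and tested, and none passed. In limma the unadjusted p was under 0.05 for 2 of these 4 (15.9% of all genes), Fgfr2, which was higher in p16 samples, and Fgfrl1, which was lower, and neither edgeR nor DESeq2 called a receptor. Fgfr2, whose epithelial splice form binds FGF7 and FGF10, was at 588.3, 762.3, 630.6 and 597.4 in control samples and at 941.9, 746.4, 751.9 and 698.9 in p16 samples. Only the library labelled p16 replicate 1 was above the control range, and the log2 difference of 0.28 (SE 0.11, limma, adjusted p = 0.230) was 0.19 without it. Read counts per gene do not separate the splice forms.

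Fgfr1 was at 379.8, 183.5, 184.6 and 311.7 in control samples and at 329.4, 271.7, 272.2 and 170.2 in p16 samples (log2 difference 0.01, SE 0.23, limma, adjusted p = 0.989). The spread among control samples was larger than the difference between the groups, and the sign changed with the setting. Fgfr3 was between 116.8 and 165.0 in control samples and between 124.1 and 250.8 in p16 samples, with p16 replicate 4 highest. Fgfr4 had at most 1 read in any sample. Fgfr2 held between 53.1% and 71.7% of the reads of the 4 receptor kinases in control samples and between 62.4% and 65.3% in p16 samples, with no correction for length. In GENCODE M21 Fgfr2 spans chr7:130162451-133123350 (GRCm38, minus strand) and overlaps many genes, among them the coding genes Ate1 and Ctbp2 on its own strand. The effect of this overlap on its counts was not tested.

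Fgfrl1, a receptor that lacks the kinase domain, was between 7.5 and 15.3 in control samples and at 11.2, 6.2, 2.7 and 4.1 in p16 samples (log2 difference -0.83, SE 0.39, limma, adjusted p = 0.310). The carrier Fgfbp1, a secreted protein that releases FGFs from heparan sulfate, was at 701.8, 634.0, 480.2 and 682.9 in control samples and at 633.2, 723.8, 549.7 and 689.0 in p16 samples. Its log2 difference was 0.06 (SE 0.13, limma, adjusted p = 0.880). Fgfbp3 was at 30.4, 27.0, 40.1 and 10.7 in control samples and at 34.4, 27.3, 25.7 and 20.6 in p16 samples (log2 difference 0.11, SE 0.33, limma, adjusted p = 0.918). The groups overlapped for both carriers, and limma at an unadjusted p under 0.05, edgeR and DESeq2 called neither.

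Of the whole set, Spry1 had the smallest p (ENSMUSG00000037211, chr3:37639947-37644598, GRCm38, plus strand). It is a Sprouty gene that ERK signalling induces and whose product limits that signal. It was at 179.5, 145.0, 121.1 and 111.5 in control samples and at 365.4, 224.9, 292.6 and 256.5 in p16 samples. Every p16 sample was above every control sample. The mean was 139 ± 30.3 (SD, n = 4) in control and 285 ± 60.4 (SD, n = 4) in p16 samples, 2.05-fold higher, with a log2 difference of 1.03 (SE 0.17, limma, adjusted p = 0.00285). The exact two-sided permutation p was 0.0286, the smallest that 4 against 4 samples can give. Spry1 passed in all 15 other settings, with log2 differences of 0.90 to 1.16 and adjusted p-values between 5.85e-06 in DESeq2 and 0.0393 in limma without replicate 3 of both groups. Without the library labelled p16 replicate 1, which had the highest Spry1 value, the difference was 0.90 (limma, adjusted p = 0.0125).

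The other Sprouty genes did not pass the test. Spry2 was between 53.5 and 91.2 in control samples and between 64.0 and 96.7 in p16 samples (log2 difference 0.16, SE 0.18, limma, adjusted p = 0.760). Spry4 was low, between 3.1 and 6.7 in control samples and between 0.8 and 3.5 in p16 samples (log2 difference -0.95, SE 0.43, limma, adjusted p = 0.288). Spry3 had no read. A predicted gene, Gm42922, overlaps Spry1 on the opposite strand in GENCODE M21. Spry1 took between 60.2% and 66.3% of the reads of Spry1, Spry2 and Spry4 in control samples and between 72.6% and 78.8% in p16 samples, again with no correction for length.

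Within a sample, the ratio of Spry1 to Spry2 was 1.97, 1.88, 1.58 and 2.08 in control samples and 3.78, 3.51, 3.88 and 2.67 in p16 samples. The ranges did not overlap (difference of mean log2 ratios 0.87, exact two-sided permutation p = 0.0286, the smallest possible). Adjusted over the 5 ratios compared, which were chosen after the values had been seen, the permutation p was 0.143. With 1 ratio at the smallest possible p it could not have been lower, so nothing is drawn from it.

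Spred2 (ENSMUSG00000045671, chr11:19924375-20024026, GRCm38, plus strand), whose product blocks the activation of RAF by RAS, also rose. It was at 194.4, 210.5, 177.1 and 238.3 in control samples and at 284.6, 296.7, 288.2 and 289.4 in p16 samples. The p16 values lay all above the control values. They lay closer together than counting error at their 325 to 380 reads would give on average, so their SD understates the uncertainty. Means were 205 ± 26.0 (SD, n = 4) and 290 ± 5.08 (SD, n = 4), 1.41-fold higher in p16 cells, with a log2 difference of 0.50 (SE 0.11, limma, adjusted p = 0.0158). Its size kept between 0.44 and 0.58 over the other settings, but the adjusted p rose to 0.0565 without control replicate 1, 0.0507 without control replicate 3, 0.0510 without the library labelled p16 replicate 1 and 0.109 without replicate 3 of both groups (limma).

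Spred1 was at 411.7, 360.6, 336.6 and 320.8 in control samples and at 428.6, 421.6, 431.8 and 310.0 in p16 samples, so that 3 p16 samples were above the control range and replicate 4 was below it. Its log2 difference was 0.15 (SE 0.12, limma, adjusted p = 0.633). The ratio of Spred2 to Spred1 was between 0.47 and 0.74 in control samples and between 0.66 and 0.93 in p16 samples, which overlapped (exact two-sided permutation p = 0.114, adjusted over the 5 ratios 0.190). Spred3 had at most 3 reads.

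Because the sort could pass cells other than keratinocytes, 6 fibroblast markers are given beside Spry1 and Spred2. Of the 5 tested, 1 passed: Dcn was at 5.9, 2.6, 4.2 and 10.7 in control samples and at 85.6, 89.8, 203.0 and 36.2 in p16 samples. Col1a2 did not overlap in the opposite direction, at 17.8, 10.3, 4.2 and 9.2 in control samples and at 1.6, 3.1, 2.7 and 3.3 in p16 samples (log2 difference -1.51, SE 0.41, limma, adjusted p = 0.0571). Col1a1 was between 0.8 and 2.6 in control samples and between 2.3 and 11.5 in p16 samples (log2 difference 1.09, SE 0.49, limma, adjusted p = 0.285). Pdgfra and Col3a1 did not exceed 4.6 in any sample, and Lum was at 0 in all. The summed level of the 6 was between 10.8 and 27.3 in control and between 42.8 and 221 in p16 samples. Dcn alone made up most of that sum in every p16 sample, so the higher sum is that of a single gene. None of 5 tested Langerhans and myeloid markers passed, with 1 higher at an unadjusted p under 0.05 in limma: Cd207 was at 0.7, 0, 0.8 and 0 in control samples and at 2.4, 4.7, 1.8 and 3.3 in p16 samples, which did not overlap. Cd74 was between 72.7 and 91.7 and between 79.8 and 113.5, and Lyz2 was at 0 in all samples. None of 4 tested T cell markers passed, and an unadjusted p under 0.05 was found for 1 in each direction. The higher was Thy1, at 784.1, 791.8, 664.0 and 582.1 in control samples and at 674.8, 1466.3, 827.3 and 2908.2 in p16 samples, and the lower was Cd3d, between 7.6 and 15.0 and between 1.8 and 7.4. Neither of 2 tested dermal papilla markers passed. Vcan was at 0.7, 0, 1.7 and 1.5 in control samples and at 2.4, 5.5, 12.4 and 1.6 in p16 samples (log2 difference 1.52, SE 0.56, limma, adjusted p = 0.179). Rspo3 was between 20.9 and 46.0 and between 23.1 and 32.9, and Corin and Prom1 were at 0 in all samples. Of 6 endothelial markers, Cdh5, Kdr, Emcn and Cldn5 were at 0 in all samples and Pecam1 did not exceed 6.4. Of 6 suprabasal keratinocyte markers, Lor passed as higher (log2 difference 1.72, SE 0.33, limma, adjusted p = 0.00951). Sbsn (-0.92, SE 0.18, limma, adjusted p = 0.00905) and Ivl (-1.06, SE 0.24, limma, adjusted p = 0.0215) passed as lower, and Krt1, Krt10 and Krtdap did not pass. None of 6 basal markers passed, with 2 higher at an unadjusted p under 0.05 in limma. The part of these markers, and of those given beside Fgf18, in the Spry1 and Spred2 differences was not tested.

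**Figure D3:**
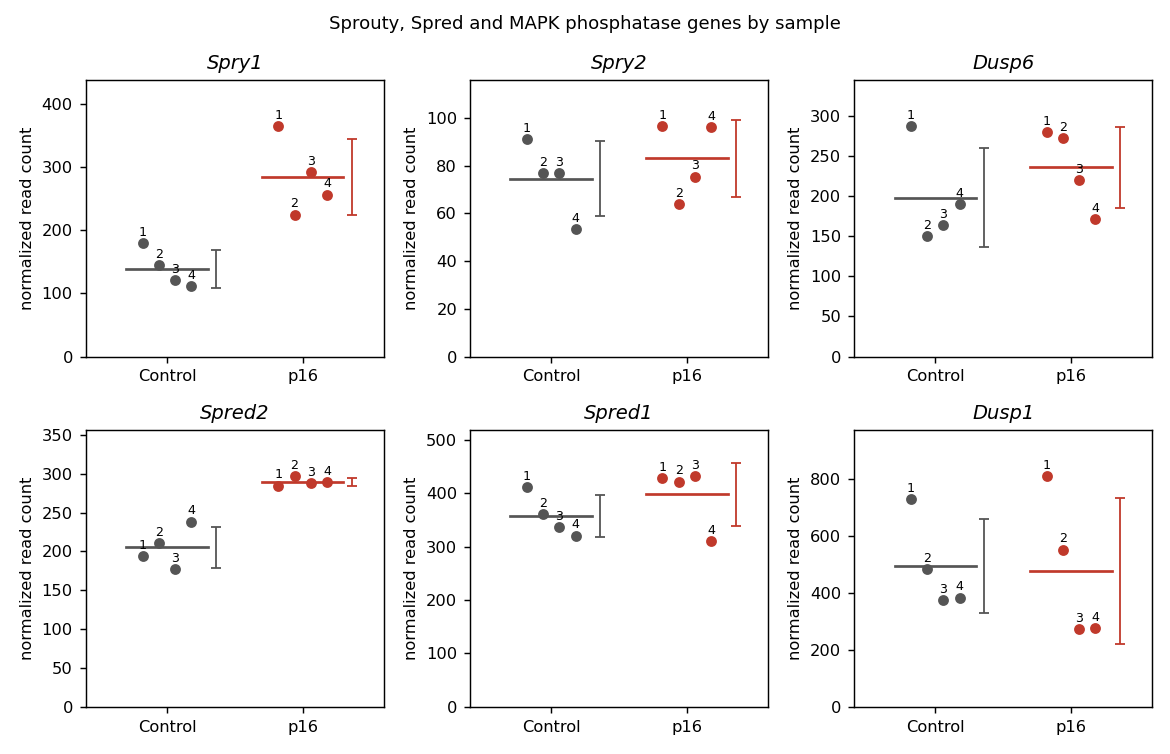
Normalized read count (y axis, linear, from 0) of Sprouty, Spred and MAPK phosphatase genes in the 4 control and 4 p16 samples; numbers are replicates, horizontal lines group means and bars SD. Spry1 and Spred2 separate the groups, whereas Spry2, Spred1, Dusp6 and Dusp1 overlap.

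All 10 MAPK phosphatase genes were detected and none passed the test in limma, edgeR or DESeq2. At an unadjusted p under 0.05, 1 of the 10 was lower (Dusp4) and none was higher. Their median log2 difference was -0.03, with a range of -0.98 to 0.50. Among the cytoplasmic ERK phosphatases, Dusp6, a standard transcript of FGF and ERK activity, was at 287.1, 150.2, 163.7 and 189.4 in control samples and at 279.0, 271.7, 219.9 and 171.0 in p16 samples. The groups overlapped, and control replicate 1 was the highest sample (log2 difference 0.27, SE 0.19, limma, adjusted p = 0.558). The ratio of Spry1 to Dusp6 was between 0.59 and 0.97 in control samples and between 0.83 and 1.5 in p16 samples (exact two-sided permutation p = 0.0571, adjusted over the 5 ratios 0.143).

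Dusp7 was at 468.1, 428.6, 515.3 and 595.8 in control samples and at 523.7, 420.0, 511.6 and 687.4 in p16 samples (log2 difference 0.08, SE 0.14, limma, adjusted p = 0.853). Dusp9 was low, between 0 and 14.2 in control samples and between 4.0 and 13.2 in p16 samples. The control and p16 ranges overlapped for both genes.

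Among the inducible nuclear phosphatases, Dusp1, an immediate early gene that inactivates p38, JNK and ERK, was at 728.5, 483.8, 375.0 and 383.5 in control samples and at 809.2, 552.0, 272.2 and 276.3 in p16 samples. It split the p16 group, with replicates 3 and 4 below all control samples and replicate 1 above them (log2 difference -0.15, SE 0.30, limma, adjusted p = 0.882). Fos, which tissue dissociation is known to induce, was at 557.1, 426.1, 407.6 and 469.0 in control samples and at 660.4, 576.2, 151.6 and 98.7 in p16 samples, low in the same p16 replicates. None of 16 dissociation and immediate early genes passed in limma, edgeR or DESeq2 (at an unadjusted p under 0.05, 1 was lower), and their median log2 difference was -0.11. The part of dissociation in the Dusp1 values was not tested.

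Dusp4 was between 3.1 and 5.8 in control samples and between 0.8 and 3.1 in p16 samples, at no more than 7 reads (log2 difference -0.98, SE 0.43, limma, adjusted p = 0.272). Dusp5, which removes phosphates from nuclear ERK, was between 68.5 and 111.3 in control samples and between 61.2 and 86.4 in p16 samples. Dusp2 was between 2.6 and 6.1 in both groups.

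The phosphatases that act mainly on JNK and p38 also overlapped between the groups. Dusp16 was between 66.7 and 83.8 in control samples and between 62.5 and 76.8 in p16 samples and Dusp8 between 24.4 and 56.0 and between 32.9 and 54.4. Dusp10 stood at 13 reads or fewer in every sample. Log2 differences of Dusp16, Dusp8 and Dusp10 were -0.04, -0.01 and -0.40.

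Of the 14 atypical phosphatase genes, 4 had no read (Dusp13, Dusp15, Dusp21 and Dusp27) and none of the 10 tested passed in limma, edgeR or DESeq2. At an unadjusted p under 0.05, 1 was lower. This was Dusp26, at 35.6, 20.5, 25.9 and 18.3 in control samples and at 7.2, 19.5, 10.6 and 6.6 in p16 samples. Only p16 replicate 2 lay inside the control range (log2 difference -1.20, SE 0.33, limma, adjusted p = 0.0652). Without that sample the difference was -1.49 and passed (limma, adjusted p = 0.0145), the only setting in which it did.

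Dusp22, which acts on the JNK pathway, was at 259.6, 275.9, 309.0 and 282.6 in control samples and at 363.0, 232.7, 253.6 and 375.7 in p16 samples (log2 difference 0.09, SE 0.15, limma, adjusted p = 0.843). Its p16 samples lay on both sides of the control range. Dusp11, an RNA phosphatase, was at 212.9, 215.6, 204.6 and 184.9 in control samples and at 196.7, 253.7, 218.1 and 180.1 in p16 samples (log2 difference 0.04, SE 0.12, limma, adjusted p = 0.914). The log2 differences of Dusp3, Dusp12, Dusp14, Dusp18, Dusp19, Dusp23 and Dusp28 were 0.16, 0.06, -0.08, -0.60, -0.10, -0.31 and 0.16, none with an unadjusted p under 0.05.

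Genes of the same pathway outside the set were then counted by list. The lists were chosen with earlier results of these data known, so their shares are descriptive only. Of 17 transcripts that ERK is known to induce, 14 were tested, and 3 rose in limma, where 1.24% of all genes did: Etv4, Etv5 and Ccnd1. None fell in limma, edgeR or DESeq2, and 1 was lower at an unadjusted p under 0.05. The median log2 difference of the 14 was 0.20, beside 0.00 over all genes. Etv4 and Etv5 encode ETS factors of the PEA3 group that FGF signalling induces. The study itself reported Ccnd genes as upregulated in these cells and counted them among genes that also respond to Wnt.

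Etv4 was at 65.3, 74.4, 58.5 and 50.4 in control samples and at 178.3, 155.4, 175.6 and 119.2 in p16 samples (log2 difference 1.32, SE 0.16, limma, adjusted p = 0.000326). Etv5 was at 84.6, 73.2, 89.4 and 88.6 in control samples and at 166.3, 171.0, 173.8 and 143.9 in p16 samples (log2 difference 0.96, SE 0.12, limma, adjusted p = 0.000372). Ccnd1, which encodes cyclin D1, a partner of the CDK4 and CDK6 kinases that p16 inhibits, was at 905.8, 678.9, 612.2 and 715.0 in control samples and at 1210.5, 1314.8, 1424.9 and 1358.3 in p16 samples (log2 difference 0.88, SE 0.11, limma, adjusted p = 0.000452). The groups did not overlap for any of the 3 genes, and each passed in all 15 other settings. The other 11 did not pass. Among them, Egr1 was at 724.0, 480.0, 419.3 and 493.5 in control samples and at 499.7, 627.7, 337.8 and 237.6 in p16 samples (log2 difference -0.38, SE 0.24, limma, adjusted p = 0.5). The part of the cell type markers given above in the Etv4, Etv5 and Ccnd1 differences was not tested.

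**Figure D4:**
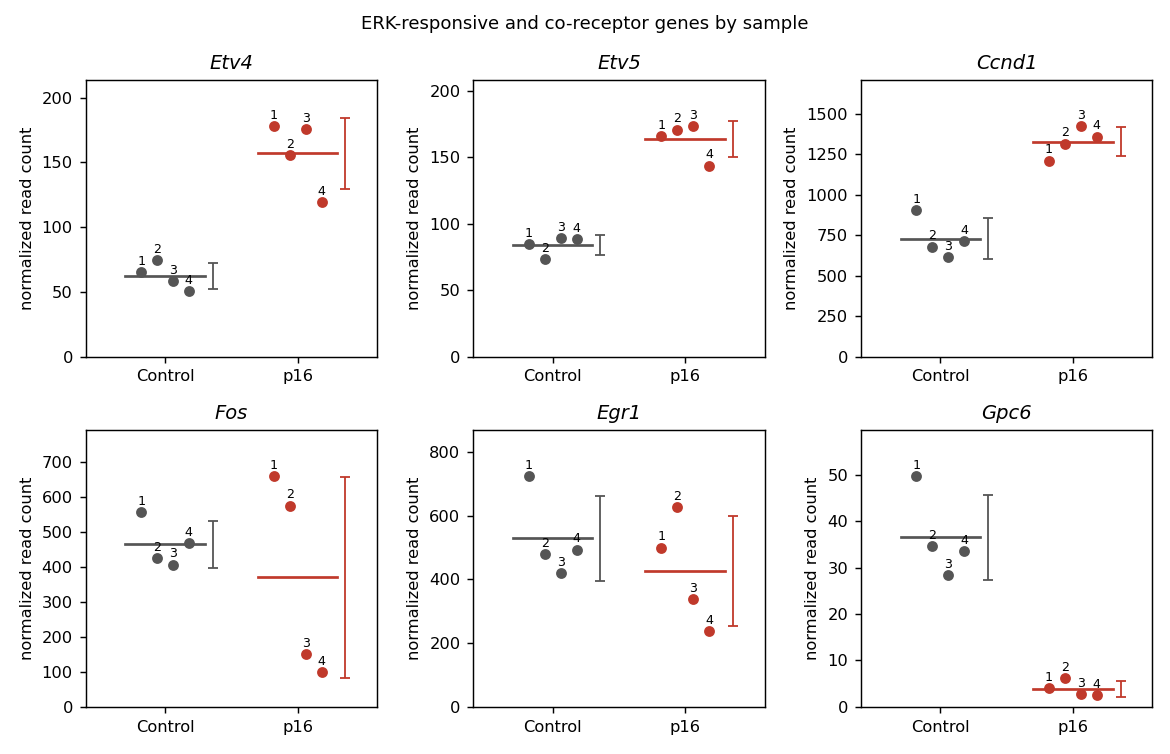
Normalized read count (y axis, linear, from 0) of 5 ERK-responsive genes and of the glypican gene Gpc6 in the 4 control and 4 p16 samples; numbers are replicates, horizontal lines group means and bars SD. Etv4, Etv5, Ccnd1 and Gpc6 separate the groups, whereas Fos and Egr1 overlap and are lowest in p16 replicates 3 and 4.

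Of 26 FGF co-receptor and heparan sulfate genes, 23 were tested, and 2 fell, where 2.61% of all genes did, while none rose (limma, with none higher in edgeR or DESeq2 and 3 higher at an unadjusted p under 0.05). Their median log2 difference was -0.07. Gpc6, a glypican that carries heparan sulfate at the cell surface, was at 49.7, 34.7, 28.4 and 33.6 in control samples and at 4.0, 6.2, 2.7 and 2.5 in p16 samples (log2 difference -2.99, SE 0.30, limma, adjusted p = 8.49e-05). It passed in all 15 other settings. Sdc1, the main syndecan of keratinocytes, was at 2515.6, 2745.1, 3502.0 and 3222.1 in control samples and at 2034.9, 2029.2, 2028.7 and 2464.2 in p16 samples (log2 difference -0.48, SE 0.12, limma, adjusted p = 0.0322). The groups did not overlap for either gene, but Sdc1 lost its call in 6 of the 15 other settings, with an adjusted p (limma) of 0.0960 and 0.0918 without control replicate 3 or 4, 0.113, 0.0760 and 0.0941 without p16 replicate 1, 2 or 3, and 0.216 without replicate 3 of both groups. Klb, a co-receptor of endocrine FGFs, had no read, and Kl, of the same list, did not exceed 4.2 in any sample, or 5 reads. The values of hair-follicle, sebaceous gland and melanocyte markers given beside Fgf18 apply here as well, and their part was not tested.

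The kinases between receptor and nucleus did not pass the test. None of 24 genes for adaptors, RAS, RAF, MEK and ERK passed in limma, edgeR or DESeq2, 1 was lower at an unadjusted p under 0.05, and their median log2 difference was 0.02. The smallest p-values in this list were those of Mapk3, which encodes ERK1 (log2 difference -0.23, SE 0.09, limma, adjusted p = 0.239), and of the scaffold gene Ksr1 (0.41, SE 0.19, limma, adjusted p = 0.315). None of 12 tested JNK and p38 kinase genes passed with any of these tools, and 2 were higher at an unadjusted p under 0.05: Mapkapk3 (log2 difference 0.34, SE 0.11, limma, adjusted p = 0.123) and Mapk14 (0.25, SE 0.11, limma, adjusted p = 0.248). The median of that list was 0.06.

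None of 18 genes for other brakes on receptor tyrosine kinases passed in limma or edgeR, with 1 higher and 1 lower at an unadjusted p under 0.05 and a median log2 difference of 0.03. Rasal2, which encodes a RAS GTPase-activating protein, was at 86.1, 80.9, 53.5 and 81.0 in control samples and at 52.8, 49.2, 47.9 and 29.6 in p16 samples (log2 difference -0.74, SE 0.21, limma, adjusted p = 0.0670). DESeq2 called it (adjusted p = 0.0422). Rasa3, of the same function, was between 64.3 and 85.6 in control samples and between 86.7 and 125.0 in p16 samples (log2 difference 0.50, SE 0.15, limma, adjusted p = 0.0829).

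**Figure D5:**
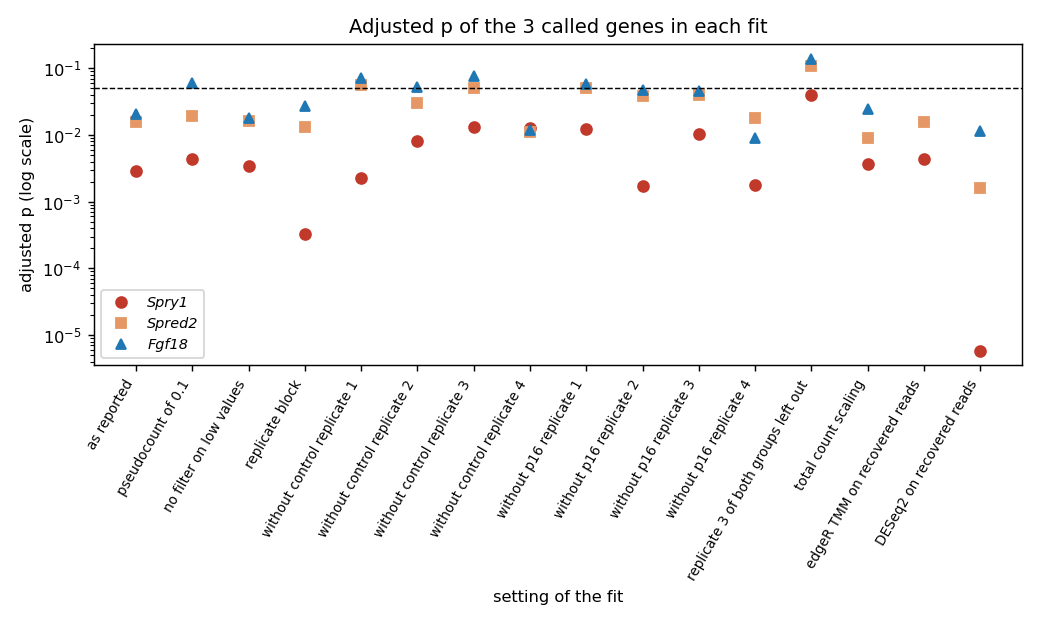
Adjusted p (y axis, log scale) of Spry1, Spred2 and Fgf18 under each setting of the fit (x axis), with the dashed line at 0.05. Spry1 stays below the line in all settings, while Spred2 crosses it in 4 and Fgf18 in 6; Fgf18 has no value in edgeR.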

How the data were processed

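The study's methods describe 3′ libraries of an adapted CEL-Seq2 protocol. Per the submitters' processing notes, the authors used TopHat2, HTSeq and DESeq2 on GRCm38, with versions, use of strand and annotation not given in the sources used here. The deposited signal values are read counts divided by a size factor and rounded to 1 decimal by the authors. The table also holds their group means, ratios, test statistics and p-values, which were not used. Dividing by the value of 1 read (0.74183 to 1.5278) gave whole reads, within 0.05 of the normalized value, for 99.72% to 100% of values. Totals were 1760953 to 3414362 reads. The other 13 samples in the labels were not analysed here.

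The p16 and control groups were fitted in limma 3.58.1 with eBayes and its trend option (R 4.3.3), on log2(value + 1), for the 12782 genes with a mean of at least 1, with Benjamini-Hochberg adjustment over all of them and a threshold of 0.05. A fold on this scale understates changes of low genes. edgeR 4.0.16 (TMM, quasi-likelihood) and DESeq2 1.42.0 on recovered reads, a pseudocount of 0.1, no filter, total count scaling, a replicate block and left-out samples were alternatives. The fits were tested on simulated data with the same dispersion for every gene. Genes changed there had higher means than Fgf18 and larger folds than Spred2, so the simulation does not bear on those calls. Values in every sample are given for genes of the set that were called or did not overlap and for the 2 highest of each role. Of the pathway lists, called genes were named, or the 2 with the smallest p where none was called. Dusp6, Dusp26, Fos, Egr1, the marker genes given by sample and the ratios were chosen after their values were seen, and the genes and lists were chosen with earlier results of these data known. Replicate numbers were not taken to pair samples. Gene positions are from GENCODE M21 and promoters from RefSeq (GRCm38.p6). Near-identical or overlapping genes may share reads.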

Additional observations from a re-analysis of the deposited data

Results flagged for a closer look

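In each of the 36 tested genes, the 4 control and the 4 p16 samples were searched for a sample that stands far from the other 3 (a gap beyond Dixon's 95% critical value), which chance alone gives in about 1 group in 20. Of 72 sets of 4, 7 held one. Among p16 samples, replicate 4 stood apart in Spred1 (310.0, the others between 421.6 and 431.8), in Dusp14 (235.2, the others between 178.0 and 182.7) and in Dusp9 (13.2, the others between 4.0 and 5.5). Among control samples, replicate 1 stood apart in Fgf1 (54.9, the others between 28.4 and 29.5) and replicate 3 in Fgf11 (23.4, the others between 15.6 and 16.8). Fgf2 had at most 4 reads in any sample in both of its cases, with control replicate 2 at 0 (the others between 1.5 and 1.7) and p16 replicate 2 at 3.1 (the others between 0.8 and 0.9).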

How the results depend on the processing

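Of 299 values of 20 named genes under other settings, 263 kept their direction and side of the threshold, 16 lost and 1 gained a call, and 19 changed sign. All sign changes were in genes not called in any setting. Spry1, Etv4, Etv5, Ccnd1 and Gpc6 kept their calls throughout, and the ERK-responsive list kept 3 genes higher in every setting.

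Counts moved as follows. Leaving out 1 sample gave 1 to 2 genes of the set higher and 0 to 2 lower (2 and 1 as reported), 69 to 196 of all genes higher (159) and 177 to 343 lower (334), 0 to 1 co-receptor genes higher (0) and 1 to 2 lower (2), 0 to 1 other brakes lower (0), which was Rasal2 without control replicate 3, and 0 to 1 ERK-responsive genes lower (0), which was Egr2 without p16 replicate 2. Ext1 was the co-receptor gene higher without p16 replicate 4. Of all genes, 86 were higher without control replicate 1, 69 without the library labelled p16 replicate 1 and 99 without p16 replicate 3, and 177 and 192 were lower without the first and the second of these. Leaving out replicate 3 of both groups gave 1 gene of the set higher and 0 lower, 66 and 157 of all genes, and 1 co-receptor gene lower. With a pseudocount of 0.1 or in edgeR, 0 genes of the set were lower. In edgeR Fgf18 did not pass the filter, and the cause at a pseudocount of 0.1 was not tested. At an unadjusted p under 0.05, 4 were higher and 5 lower. With a replicate block, 1 other brake, Rasal2, was lower (log2 difference -0.74, adjusted p = 0.0482), as in DESeq2 (1 lower), and the calls in the set were those reported. The replicate block rests on numbers alone: same-numbered samples correlated at 0.055, 0.004, 0.046 and 0.083 in their deviations from the group means. Control replicates 3 and 4 correlated best with the p16 sample of their own number. Control replicate 1 correlated best with p16 replicate 2 (0.057), and control replicate 2 with p16 replicate 1 (0.058).

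Log2 differences that changed sign when 1 sample was left out ranged from -0.05 to 0.19 for Dusp7, -0.45 to 0.07 for Dusp1, -0.02 to 0.21 for Dusp22, -0.05 to 0.12 for Dusp11, -0.06 to 0.14 for Fgfbp1, -0.26 to 0.34 for Fgfbp3 and -0.14 to 0.21 for Fgfr1. Fgfbp3 was at -0.07 in edgeR and -0.05 in DESeq2, and Fgfr1 at -0.03 and -0.02, and at -0.17 without replicate 3 of both groups.

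With 4 pools a group, 3 reads are worth up to 4.58 in the shallowest library, so genes such as Fgf18, Spry4 and Dusp4 lie near the limit and 24 genes of the set could not be compared. Total count scaling moved the median of all genes to 0.03.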
